A study of Caenorhabditis elegans with 2 samples.

Results

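Regions at nuclear tRNA genes were taken from the list of NFYA-1 regions that the authors made from both replicates pooled. A region was kept when its summit, the position of strongest signal, lay within 200 bp of a gene annotated as tRNA on the 6 nuclear chromosomes. This rule, which uses position and no measured value, found 305 of the 15499 nuclear regions (1.97%). Of the 305, 159 also stood in the shorter list of regions that the authors kept after a test of reproducibility (from here on, the peak list), and 146 did not.

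Chromatin immunoprecipitation followed by sequencing (ChIP-seq) was done in whole late embryos of Caenorhabditis elegans hermaphrodites, of unknown age per the labels. The strain was OP404, with genotype unc-119(tm4063) III; wgIs404, and its integrated transgene encodes NFYA-1 with GFP and FLAG tags at the C terminus. Both samples, biological replicates 1 and 2, share this genotype, and the antibody was against GFP per the labels' descriptions. There was 1 group and no second condition, all cells of the embryo were pooled, and the depth of the libraries is unknown because the files hold region lists and no read counts.

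A tRNA gene is transcribed by RNA polymerase III from promoter elements inside the gene, the A box and the B box. The factor TFIIIC binds these boxes and places TFIIIB just upstream of the gene's start, where the polymerase is recruited. NFYA-1 is a worm homologue of the NF-YA subunit of NF-Y, a complex that binds CCAAT boxes, mostly at promoters of RNA polymerase II genes. tRNA genes occur in families of identical copies scattered over the chromosomes, many of them inside introns of protein-coding genes.

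The following sequences are tRNA genes, windows around summits and upstream flanks. They come from the RefSeq copy of WBcel235, the genome of build ce11, and run 5′ to 3′ on the strand of the tRNA gene. ZK622.t1 (chrII:5292332-5292403, plus strand), a tRNA-Ala gene with 15 identical copies in all, and K11H12.t1 (chrIV:658181-658266, plus strand), the only tRNA-Sec gene and so the gene for the selenocysteine tRNA, are shown whole with the B box in capitals.
ZK622.t1: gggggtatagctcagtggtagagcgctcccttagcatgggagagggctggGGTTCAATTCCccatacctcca
K11H12.t1: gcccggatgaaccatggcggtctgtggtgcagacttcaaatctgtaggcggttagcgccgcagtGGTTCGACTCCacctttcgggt
The next 3 reach 50 bp from the summit either way, at 3 of the 5 strongest tRNA gene regions with CCAAT, with the box in capitals. It reads ATTGG where CCAAT is on the strand opposite to the tRNA gene. The windows are those of F57F5.t1 (chrV:12002111-12002211, plus strand), a tRNA-Ile gene, ZK563.t1 (chrX:3371430-3371530, minus strand), a tRNA-Thr gene, and ZC455.t1 (chrV:12780439-12780539, minus strand), a tRNA-Ser gene.
F57F5.t1: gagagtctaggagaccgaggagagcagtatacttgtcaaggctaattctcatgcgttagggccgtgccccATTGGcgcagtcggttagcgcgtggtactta
ZK563.t1: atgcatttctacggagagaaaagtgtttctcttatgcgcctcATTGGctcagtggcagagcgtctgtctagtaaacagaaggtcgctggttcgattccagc
ZC455.t1: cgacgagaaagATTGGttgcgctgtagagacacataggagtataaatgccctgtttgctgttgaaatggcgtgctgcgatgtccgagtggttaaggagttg
In the first 2 the box is inside the tRNA gene, with its middle 7 bp from the 5′ end, and in ZC455.t1 it lies upstream. The last 6 are the 60 bases just upstream of tRNA-Trp genes whose own sequences are identical, shown because regions were found at some of them and not at others. The flanks of sup-5 (chrIII:8678569-8678628, minus strand), sup-24 (chrIV:15289643-15289702, plus strand) and sup-7 (chrX:6371318-6371377, plus strand) belong to genes with a region in the peak list. Those of sup-21 (chrX:8877280-8877339, plus strand), sup-29 (chrIV:3681952-3682011, minus strand) and rtw-6 (chrIV:7344228-7344287, minus strand) belong to genes with no region.
sup-5: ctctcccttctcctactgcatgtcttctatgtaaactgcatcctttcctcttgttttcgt
sup-24: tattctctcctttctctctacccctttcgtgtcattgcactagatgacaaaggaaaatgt
sup-7: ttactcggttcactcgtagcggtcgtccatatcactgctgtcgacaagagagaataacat
sup-21: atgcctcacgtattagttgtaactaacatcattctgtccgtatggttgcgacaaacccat
sup-29: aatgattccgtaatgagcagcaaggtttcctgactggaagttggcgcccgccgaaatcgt
rtw-6: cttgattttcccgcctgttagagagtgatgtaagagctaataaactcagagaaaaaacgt
None of these 6 flanks holds CCAAT on either strand, so none carries capitals.

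Slightly over 50% of the tRNA gene regions were in the peak list. In all, 159 of 305 (52.1%, 95% Wilson interval 46.5 to 57.7) stood in the peak list, beside 26.4% of all nuclear regions in the pooled list. They made up 3.89% of the 4084 nuclear peaks, while positions within 200 bp of a tRNA gene made up 0.272% of the nuclear genome. The nuclear peak list is the 4084 highest signals of the pooled list, with 0 regions above its lowest signal of 58.2 left out, so its share and the signals below are the same measurement seen in 2 ways. Intervals cover the counting of regions only, and regions at copies of the same tRNA share sequence and are not independent. Control data were not analysed here, so signal at tRNA genes without the tagged factor was not tested.

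Their signal was moderate. The signal value is the authors' enrichment value per region, on a scale not given in the sources used here, and it was compared only within a list. It ran from 22.7 to 275.5 over the 305 regions with a median of 61.3 (95% interval 55.2 to 71.5), and the median over all nuclear regions was 33.5. Among regions in the peak list the medians lay close together, at 106 for the 159 at tRNA genes (interval 93.4 to 116) and 109 for the 3925 others (106 to 111). The upper ends did not, since the strongest tRNA gene region ranked 431 in the pooled list and the highest signal of that list was 9543. No tRNA gene region was among the 200 strongest, 3 were among the 500 strongest, 23 among the 1000 strongest and 73 among the 2000 strongest. The authors' −log10 q value had a median of 2.61 in the 159 regions in the peak list (1.77 to 2.85) and of 0.53 in the 146 others (0.022 to 1.69).

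Summits clustered at the start of the gene. Measured along the gene's strand, the median summit lay 14 bp inside the 5′ end (interval 8 to 19 bp), with quartiles at -20 and 53 bp. Of the 305 summits, 118 lay upstream, 142 inside the gene and 45 downstream, where the median tRNA gene was 72 bp long. Within 50 bp of the 5′ end lay 78.6% of the summits in the peak list (71.6 to 84.3) and 49.3% of those not in it (41.3 to 57.3). Closeness to the gene went with the share in the peak list. That share was 62.7% of 142 regions with the summit inside the gene, 54.1% of 109 at 1 to 50 bp from it, 24.0% of 25 at 51 to 100 bp and 17.2% of 29 farther off but within 200 bp. Beyond the limit of 200 bp it was 25% of 28 regions up to 500 bp and 19.7% of 71 regions up to 1000 bp, so the raised share was found close to the gene. By side, it was 62.7% inside the gene, 47.5% upstream (38.7 to 56.4) and 31.1% downstream (19.5 to 45.7).

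**Figure D1:**
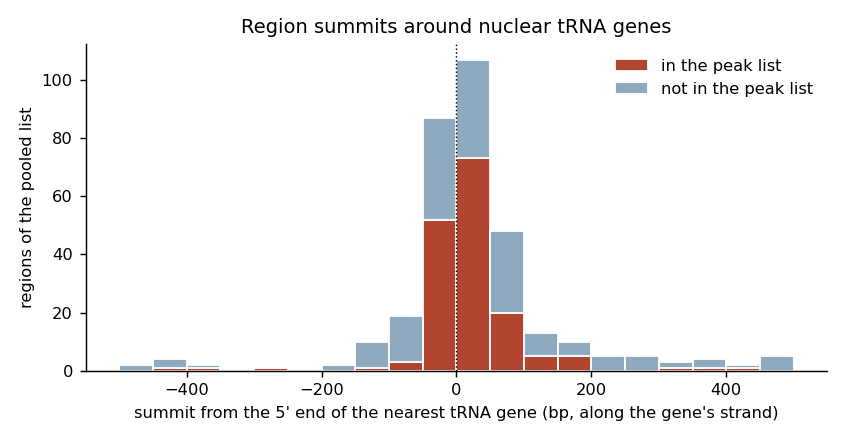
Region summits of the pooled list by position from the 5′ end of the nearest tRNA gene, in bins of 50 bp along the gene's strand, split by whether the region was in the peak list. The bin from 0 to 50 bp holds 107 regions, 73 of them in the peak list, and the bin from -50 to 0 bp holds 87, 52 of them in it.

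Most tRNA gene regions had a summit in each replicate, whose reads also went into the pooled list. A summit of replicate 1's own list lay within 100 bp of 271 of the 305 summits (88.9%), and one of replicate 2's list within 100 bp of 263 (86.2%). Among the 15194 other nuclear regions these shares were 75.1% and 76.5%. The tRNA gene regions and the others also differed in pooled signal, with medians of 61.3 and 33.2. The part of signal in these shares was not tested. Both replicates had 234 of the 305 (76.7%) and neither had 5. Of the 159 regions in the peak list, 152 were found in both (95.6%), beside 96.6% of other peaks, and 124 were among the 4084 strongest regions of each replicate, a number set to the length of the nuclear peak list. Of the 146 not in the peak list, 82 were found in both (56.2%, interval 48.1 to 64.0), beside 41.5% of the other regions outside it. Of the same 146, 12 were among the strongest of replicate 1, 13 among those of replicate 2 and none among those of both. The peak list holds the highest pooled signals, which come from the same reads. A region strong in both replicates would therefore mostly be in that list. Counts among the strongest were not made for other regions, so they do not show whether tRNA gene regions differ from these. Across the 234 regions found in both lists, the signals had a Spearman correlation of 0.82, and across the 152 in the peak list of 0.75, as a description over regions of the same pair of libraries.

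**Figure D2:**
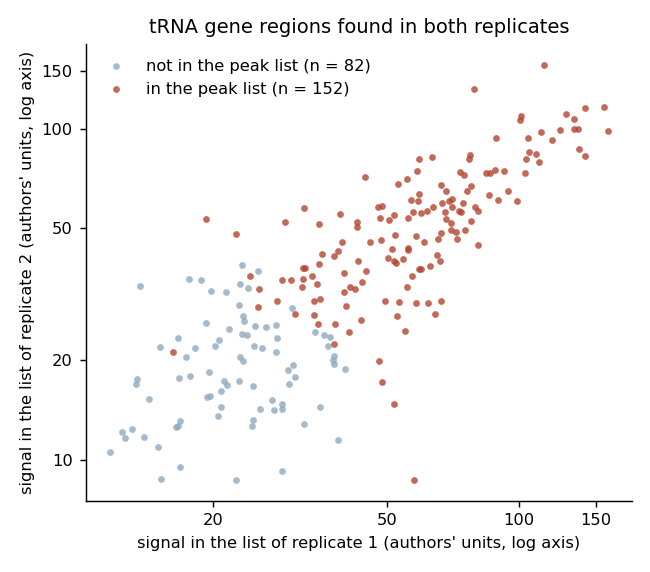
Signal of each of the 234 tRNA gene regions found in both replicates, in the list of replicate 1 (horizontal, log axis) and of replicate 2 (vertical, log axis), in the authors' units, with the 152 in the peak list in red. The red points lie mostly to the upper right, and the lowest of them, F41A4.t1, had 57.8 in replicate 1 and 8.68 in replicate 2.

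Each replicate alone gave a similar picture. When the 200 bp rule was applied to its own summits, replicate 1 had 329 regions at tRNA genes, of which 158 (48.0%, interval 42.7 to 53.4) were among its 4084 strongest, beside 19.0% of all its nuclear regions. Replicate 2 had 347, of which 155 (44.7%, 39.5 to 49.9) were among its strongest, beside 14.3%. Among the 234 regions found in both lists, the largest difference in rank, as a share of each list, was at F41A4.t1, a tRNA-Asp gene. It ranked 2050 in replicate 1 and 26851 in replicate 2 although it was in the peak list. F12D9.t2 (tRNA-Glu, signal 22.6 and 8.69) and F18C5.t1 (tRNA-Lys, inside mpz-3, signal 28.8 and 9.25) followed, and neither was in the peak list. Regions with no matching summit in a replicate have no rank there and are outside this order. An example is Y65A5A.t1 (tRNA-Ala), in the peak list, which ranked 2120 in replicate 1 and had no match in replicate 2.

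The strongest region lay at F41D9.t3, a tRNA-Asn gene on chrX:8404499-8404571 inside an intron of sulp-3, which encodes an anion transporter of the sulfate permease family. Its summit was 27 bp upstream of the gene and its signal was 275.5 in the pooled list, 156 in replicate 1 and 117 in replicate 2. C28G1.t1 (tRNA-Glu, X) followed with 266 pooled, 114 and 156 in the replicates. This gene overlaps a coding exon, and the summit lay in a coding promoter. C04A11.t1 (tRNA-Leu, X), a gene with no identical copy, had 259, 141 and 116, with the summit 34 bp inside the gene. In all 3 both replicates ranked the region among their 1000 strongest.

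F57F5.t1 (tRNA-Ile, V) had a pooled signal of 249, with 159 in replicate 1 and 98.6 in replicate 2, and its summit 15 bp upstream also lay in a coding promoter. C37A2.t1 (tRNA-Cys) on chromosome I, in an intron of cye-1, the gene for cyclin E, had 243, 134 and 107. The other 5 of the 10 strongest ran from 238 down to 223 in the pooled list and were F46G11.t2 (tRNA-Pro), M02F4.t1 (tRNA-Gly), C42D8.t1 (tRNA-Ile), T21B4.t1 (tRNA-Ile, inside the collagen gene col-85) and R04A9.t1 (tRNA-Gln). The summit of R04A9.t1, 125 bp upstream of the gene, lay in a coding promoter too. Of the 10, 9 had the summit upstream of the gene, at 14 to 125 bp from its 5′ end. The strongest on the remaining chromosomes were sup-5 on III, inside fli-1, a homologue of the Drosophila gene flightless, and F29C4.t1 on IV (tRNA-Arg, inside the collagen gene col-99), at 207 and 161.

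The genome annotation lists 612 nuclear tRNA genes. A region lay within 200 bp of 309 of them (50.5%, interval 46.5 to 54.4), and a region of the peak list within 200 bp of 170 (27.8%, 24.4 to 31.5). The 303 others had their nearest summit 203 to 58461 bp away, with a median of 2440 bp. Chromosome X carries 276 of the 612 genes. It held 128 of the 305 regions, of which 70 (54.7%, interval 46.1 to 63.0) were in the peak list, beside 22.3% of all regions on X. The share of genes with a region in the peak list was 27.2% on X and 28.3% on the autosomes, where it ran from 20.5% on V to 35.9% on III with overlapping intervals.

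Every amino acid was represented among the genes with a region in the peak list. Among amino acids with more than 1 gene, the share was highest for tRNA-Phe at 6 of 14 genes (42.9%, interval 21.4 to 67.4) and tRNA-Ala at 14 of 34 (41.2%, 26.4 to 57.8). It was lowest for tRNA-His at 3 of 20 (15%, 5.24 to 36.0) and tRNA-Asn at 4 of 20 (20%, 8.07 to 41.6). These intervals overlap, so the order of the amino acids is not resolved. The tRNA-Sec gene K11H12.t1, needed to insert selenocysteine, had a region in the peak list with signal 77.6 in the pooled list, 55.0 in replicate 1 and 24.4 in replicate 2, its summit 74 bp upstream and in a coding promoter. None of the 5 genes with no amino acid given had a region.

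**Figure D3:**
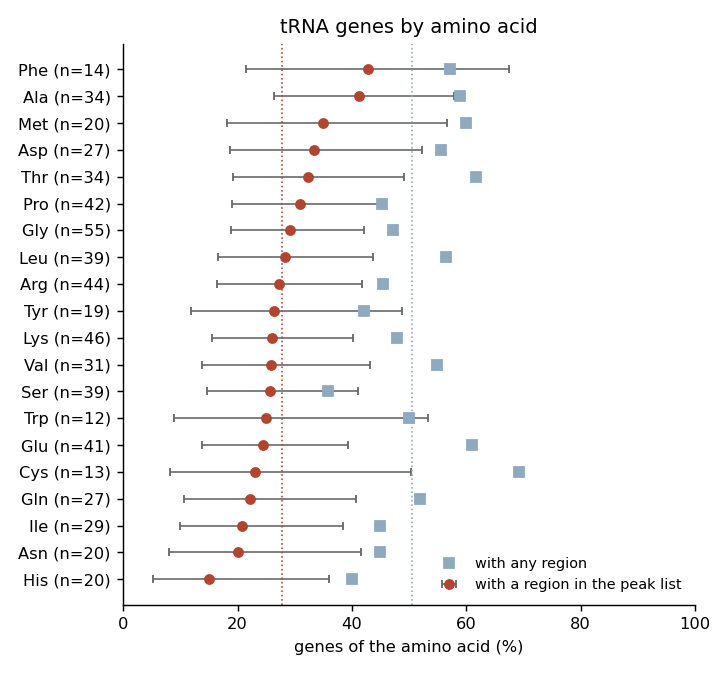
Share of the tRNA genes of each amino acid with a region in the peak list (red circles, 95% Wilson intervals) and with any region (blue squares), for the amino acids with more than 1 gene. Dotted lines mark the shares over all 612 genes, 27.8% and 50.5%, and every red interval spans the red line.

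Copies of the same tRNA gene differed. Of the 612 genes, 469 have at least 1 copy with the identical sequence, in 57 groups. In 40 of the groups some genes had a region in the peak list and others had none, in 4 every gene had one and in 13 no gene had. The largest group, 29 tRNA-Gly genes, had regions at 18 and regions in the peak list at 9. The group of ZK622.t1, 15 tRNA-Ala genes, had regions at 12 and regions in the peak list at 8. Its pooled signals ran from 147 at ZK622.t1 down to 24.3 at C56G3.t1. Genes with no identical copy had a region in the peak list at 27 of 143 (18.9%, interval 13.3 to 26.1), and the classes with copies gave 22 of 67 genes with 2 to 4 copies (32.8%, 22.8 to 44.7), 24 of 85 with 5 to 9 (28.2%, 19.8 to 38.6) and 97 of 317 with 10 or more (30.6%, 25.8 to 35.9). Among the classes with copies the share did not rise with their number.

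The tRNA-Trp genes show this at named loci. Several are known by their amber suppressor mutations, in which the altered tRNA reads a stop codon, hence the name sup. There are 12 tRNA-Trp genes, of which 10 have the same sequence. At sup-5 the signal was 207 in the pooled list, 100.6 in replicate 1 and 106.5 in replicate 2. At sup-24 it was 88.9, 58.1 and 29.8, and at sup-7 it was 84.7, 42.8 and 39.8. These 3 summits lay 15 to 30 bp upstream of the gene, all in the peak list. At sup-28 the pooled signal was 35.7, with no matching summit in replicate 1, and at Y95B8A.t1 it was 22.8, with none in replicate 2. Neither was in the peak list. The other 5 copies, sup-21, sup-29, sup-33, rtw-6 and Y4C6B.t2, had no region, and their nearest summits were 917 to 22818 bp away. The 60 bases upstream differed among the 9 copies compared, with a median identity of 30.0% over their 36 pairs (20 to 43.3%), and CCAAT stood in the flank of sup-33 alone. The tRNA-Trp genes were singled out after their values were seen.

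The share with a region in the peak list was higher at isolated than at clustered tRNA genes, and the gap varied with the setting. A gene was called clustered when another tRNA gene lay within 1 kb, which gave 236 genes in 100 clusters and 376 isolated genes. A region of the peak list lay at 122 of the 376 isolated genes (32.4%, interval 27.9 to 37.3) and at 48 of the 236 clustered genes (20.3%, 15.7 to 25.9). At this setting the intervals do not overlap, and no test of the difference was made. With clusters joined within 500 bp the shares were 30.3% of isolated and 21.2% of clustered genes, and within 5 kb 35.2% and 21.2%. Without summits at coding promoters they were 26.6% and 17.8%. By the same kind of interval, the shares overlap with clusters joined within 500 bp and without summits at coding promoters. They stay apart within 5 kb. Of the 100 clusters, 63 held a tRNA gene region, 33 held one in the peak list and 17 held 2 or more regions.

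The clusters with most regions were small. Y65A5A.t1 to Y65A5A.t4 on IV, with 2 tRNA-Ala genes, a tRNA-Val and a tRNA-His gene, had a region at each, with pooled signals of 76.9, 71.4, 36.0 and 49.1, the first 2 in the peak list. The 3 tRNA-Pro genes C16B8.t1 to C16B8.t3 on X had 69.0, 159 and 37.5. K04C2.t3, K04C2.t2 and K04C2.t1 on III, inside brd-1, the worm homologue of the BRCA1 partner BARD1, had 117, 54.0 and 47.5. The 2 clusters of 6 genes, both on X, went apart. F22F1.t2 to F22F1.t7 had 2 regions, both in the peak list, and F28H6.t2 to F28H6.t5 had none.

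Shares were close for tRNA genes inside and outside coding genes. Of the 283 tRNA genes in an intron, 145 had a region (51.2%) and 74 a region in the peak list (26.1%, interval 21.4 to 31.6). Of the 319 outside coding genes, 158 had a region (49.5%) and 93 one in the peak list (29.2%, 24.4 to 34.4). Among the 305 regions, 144 were at tRNA genes in introns, 155 at tRNA genes outside coding genes and 6 at tRNA genes that overlap a coding exon. Where the tRNA gene was on the strand of its host, 39 of 85 regions were in the peak list (45.9%, 35.7 to 56.4), and where it was on the opposite strand 35 of 64 were (54.7%, 42.6 to 66.3). After those already named, the strongest region in an intron was at C06G1.t1 (tRNA-His, X) with 209.8 pooled, 101.4 in replicate 1 and 109.5 in replicate 2.

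Few of the summits were at coding promoters. A coding promoter, from 500 bp upstream to 100 bp downstream of the start of a protein-coding transcript, held 43 of the 305 summits (14.1%, interval 10.6 to 18.5), beside 29.0% of the other nuclear regions. The share fell to 5.90% with a promoter of 250 bp upstream to 50 bp downstream. Outside coding promoters 133 of 262 tRNA gene regions were in the peak list (50.8%, 44.7 to 56.8), and 19.8% of 10786 other regions (19.1 to 20.6).

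Few annotated tRNA pseudogenes had a region. The RefSeq annotation gives 209 of them, which are sequences like tRNA genes that are not thought to make a working tRNA. A region lay within 200 bp of 12 (5.74%, interval 3.31 to 9.77) and a region of the peak list within 200 bp of 2 (0.957%, 0.263 to 3.42), beside 50.5% and 27.8% of the genes. The B box, searched as GGTTCGA followed by 2 unspecified bases and CC, stood in 64.6% of the pseudogenes on either strand and in 64.4% of the genes on their own strand. With the variant that begins GGTTCAA also allowed, it stood in 73.2% and 82.2%. Of the overlapping 31-base words in a locus and 100 bp to each side, a median of 97.1% occurred at 1 place only in the nuclear genome at pseudogenes, and a median of 77.8% at genes with a region and 77.9% at genes without. No gene with under 50% of such words had a region (0 of 25), and of the 17 genes with such words alone 2 had one (11.8%, 3.29 to 34.3), beside 307 of the other 595 (51.6%). The comparison with pseudogenes was added after the data were seen.

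**Figure D4:**
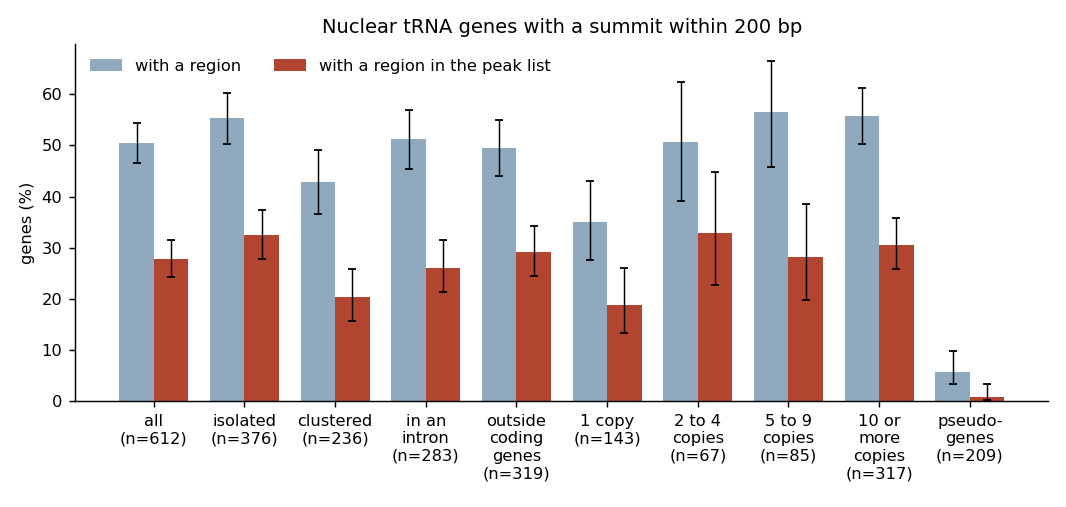
Share of nuclear tRNA genes with a region (blue) and with a region in the peak list (red) within 200 bp, for all genes, by clustering, by place, by number of identical copies, and for annotated pseudogenes. Bars start at 0 and error bars are 95% Wilson intervals; the pseudogenes are at 5.74% and 0.957%.

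The B box stood at similar shares in tRNA genes with and without a region. The first form stood in 62.5% of the 309 genes with a region (interval 56.9 to 67.7) and in 66.3% of the 303 without (60.8 to 71.4). With the variant, the shares were 80.9% and 83.5%. The run TTTT, the usual RNA polymerase III stop signal, followed within 25 bp in 99.4% and 98.0%.

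CCAAT was found at similar shares at the summits and beside them. It stood on either strand within 50 bp of the summit in 50 of the 305 tRNA gene regions (16.4%, interval 12.7 to 21.0), and in 54 of the windows of equal width 500 bp to a side chosen at random (17.7%, 13.8 to 22.4). The box was at the summit only in 38 regions and in the flank only in 42, and the difference of -1.31 percentage points did not pass the exact McNemar test (two-sided, p = 0.738). Among the 159 regions in the peak list, 29 had it at the summit and 29 in the flank, with 20 regions discordant each way (exact McNemar p = 1). Among the 3925 other regions in the peak list, 33.5% had it at the summit (31.99 to 34.94) and 19.1% in the flank, so the interval at tRNA genes, 13.01 to 24.97, lies below theirs. The GC content was 50.8% at the summits of tRNA gene regions in the peak list and 35.6% in their flanks, and 48.1% and 35.7% at other peaks. The part of GC content in the CCAAT shares was not tested.

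**Figure D5:**
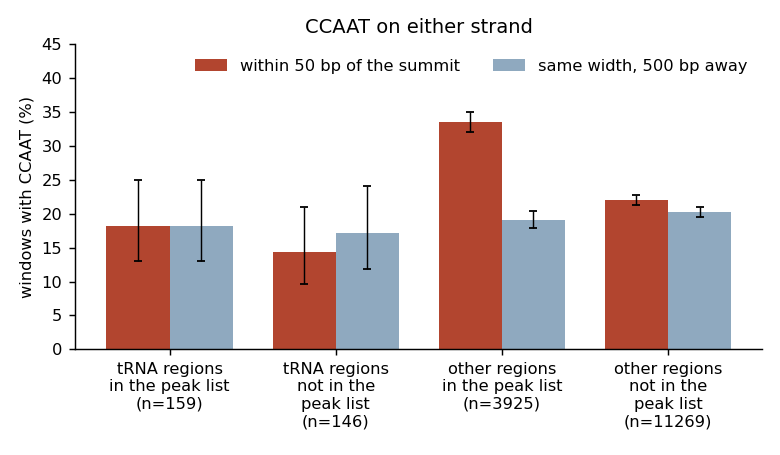
Share of windows with CCAAT on either strand within 50 bp of the summit (red) and in a window of equal width 500 bp away (blue), with 95% Wilson intervals. At tRNA gene regions in the peak list both bars are at 18.2%, and at other regions in the peak list they are at 33.5% and 19.1%.

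Strand went with place among the boxes that were present. Of 51 boxes near the 305 summits, 20 lay upstream of the tRNA gene, 15 of them on its strand, and 25 lay inside it, 22 of them on the opposite strand, with 6 downstream. Inside the gene, 24 of the 25 sat at 4 positions, and copies of a tRNA gene share their sequence. The middle of the box was 7 bp from the 5′ end in 9 (7 at tRNA-Thr and 2 at tRNA-Ile genes), 67 bp in 7 (all tRNA-Lys), 43 bp in 5 (all tRNA-Ser) and 41 bp in 3. The median distance to the summit was 22 bp. Within 100 bp of the summit, 0 of the 305 regions held a pair of boxes on the same strand with starts 32 bp apart, beside 7.59% of other peaks and 2.28% of all other regions. Regions with CCAAT were in the peak list at 29 of 50 (58.0%, interval 44.2 to 70.6) and those without at 130 of 255 (50.98%, 44.9 to 57.1). Seen from the genes, CCAAT stood in the 100 bp upstream of 88, and 28.4% of these had a region in the peak list, beside 27.7% of the others. The 5 strongest regions with CCAAT were at F57F5.t1, C37A2.t1, ZK563.t1, ZC455.t1 and T26C11.t1, a tRNA-Glu gene, with pooled signals of 249, 243, 179, 153 and 140. In the windows of F57F5.t1 and ZK563.t1 shown above, the box is part of the tRNA gene itself. At C37A2.t1, ZC455.t1 and T26C11.t1 it lies upstream of the gene.

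Protein-coding genes for RNA polymerase III, its factors and tRNA processing were described by peaks in their own promoters. Over all 19973 protein-coding genes, 11.2% had a summit of the peak list in a promoter. Of the 24 matched genes for RNA polymerase III and its factors, 7 had one (29.2%, interval 14.9 to 49.2), among 34 listed names. These were mafr-1, the homologue of the polymerase III repressor Maf1 (signal 149), rpac-19, a subunit shared by polymerases I and III (144), and rpb-10, rpb-8 and rpb-5, subunits shared by the nuclear RNA polymerases (127, 101.2 and 61.2). The others were snpc-3.4 and snpc-4, which encode subunits of the small nuclear RNA activating complex (164 and 87.2). None of the 7 encodes TFIIIB, TFIIIC or a subunit of polymerase III alone. CCAAT stood within 50 bp of the summit at rpb-10 and rpb-8 and not at the other 5. The promoter of rpb-10 shares its summit with Y37E3.1.

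Of the 26 matched genes for tRNA processing and modification, 4 had a peak (15.4%, interval 6.15 to 33.5), among 37 listed names. They were mtcu-2, for modification of mitochondrial tRNA (178), pus-1, a pseudouridine synthase (99.4), tut-2, for thiolation of cytosolic tRNA (81.3), and trm-1, a tRNA methyltransferase (59.2), whose summit is also in the promoter of ints-2. CCAAT stood at pus-1 alone. The intervals of both lists are wide, and that of tRNA processing spans the share over all coding genes. With shorter promoters (250 bp before, 50 bp after the start), 20.8% of polymerase III genes and 11.5% of tRNA processing genes had a peak. The 11.2% over all coding genes belongs to the longer promoters, and its value with the shorter ones was not computed. The shares with shorter promoters therefore have no background to be set beside.

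Signals just inside and just outside the peak list lay close together. The last tRNA gene regions inside it were Y97E10C.t1 (tRNA-Thr, 59.96) and C09B9.t1 (tRNA-Lys, 59.7), and the first outside were Y119D3B.t1 (tRNA-Ile, 57.7), F53F8.t1 (tRNA-Cys, 57.7), F14B4.t2 (tRNA-Pro, 57.5), M163.t2 (tRNA-Lys, 57.4) and C17D12.t2 (tRNA-Lys, 57.4). At the limit of distance, the farthest kept regions were at F14B4.t1 (tRNA-Arg, 198 bp from the gene, signal 28.0) and T09B4.t1 (tRNA-Ile, 192 bp, 49.2), and the first left out were at C10G8.t1 (228 bp, 52.7) and K02E11.t1 (238 bp, 28.6). None of these 4 was in the peak list.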

How the data were processed

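Peak lists of 2 biological replicates of NFYA-1-GFP ChIP-seq were used in build ce11, per the listings deposited with them. Regions were called in each replicate and on both pooled; these lists include background regions, as input to an analysis of irreproducible discovery rate (IDR), and the peak list is its output. The signal per region and the −log10 q value per region are as the authors deposited them. For the aligner, the caller, its thresholds and reads that match several places, the method was not given in the sources used here. No control was analysed here.

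tRNA genes came from Ensembl release 115 (WBcel235), sequence, pseudogenes and amino acids from RefSeq, matched by ID for all 612 genes. Distances, overlaps, shares with 95% Wilson intervals, medians with order-statistic intervals and the exact McNemar test were computed in Python 3.11.15 with SciPy 1.17.1, and tested on simulated data. Replicate summits were matched within 100 bp. The p-values assume independent regions. Named genes were the 10 strongest, the strongest per chromosome, with CCAAT and in introns, the clusters with most regions, the largest replicate differences, those next to both limits, and genes with a peak from both lists of protein-coding genes. The regions, lists and rules were chosen with earlier results of these data known.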

Additional observations from a re-analysis of the deposited data

How the results depend on the processing

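Over 14 results, 48 of 63 alternative values stayed within the 95% interval, or on the side of the threshold and in the direction, of the reported value. Of the tRNA gene regions, 23.9% were in the upper 50% of the peak list, beside 13.2% of all nuclear regions, and with either replicate left out 44.7% to 48.0% were among the strongest of the other. The share of tRNA genes with a region was 46.2% at 100 bp, 56.9% at 500 bp, 43.1% without summits at coding promoters, and 55.4% to 56.5% with either replicate left out. Chosen after seeing the data, the genes with at least 50% unique 31-base words gave 52.6%. Without summits at coding promoters, 23.2% of all genes, 26.6% of isolated genes and 17.8% of clustered genes had a peak. Recovery in replicates 1 and 2 was 81.0% and 73.8% with summits within 50 bp, and 96.1% and 94.4% with any overlap. A promoter of 250 bp upstream to 50 bp downstream held 5.90% of the summits. The difference in CCAAT between summit and flank, in percentage points, turned from -1.31 to 0.328 with 25 bp to each side, and over the 7 alternatives with a test the exact McNemar p ran from 0.53 to 1. With both flanks the difference was -4.26, with no test, so it counts among the 48 by its direction alone. A narrower or wider distance, promoter or match between replicates sets fewer or more loci in or out by construction. The upper 50% of the peak list, and genes counted without summits at coding promoters, can only give lower shares. For the other shifts the cause was not tested.

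No paired analysis was possible because there was only 1 group. Depth is unknown, control data were not analysed here, and enrichment at tRNA genes in the absence of NFYA-1-GFP was not tested.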

Other observations

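Of the 305 tRNA gene regions, 24 had the summit within 200 bp of 2 tRNA genes, and 20 tRNA genes had more than 1 region.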
